A study of Rattus norvegicus with 8 samples.

Results

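The matrix proteases, their inhibitors and fibronectin were followed in glomerular RNA as a set of 9 genes, Mmp2, Mmp9, Mmp14, Timp1, Timp2, Timp3, Plat, Plau and Fn1, out of 14217 genes named on the array. Every probe set annotated to these symbols was taken, which gave 17 of 31042 probe sets, and each gene was represented by its brightest probe set, judged by its average on the 8 arrays. The rats were Dahl SS rats (Dahl), which become proteinuric and hypertensive, and spontaneously hypertensive rats (SHR), which become hypertensive without proteinuria. The study states that the arrays were run on glomeruli. The sample titles give strain, age and replicate, and not sex, diet or the way of isolation. For these the study's general methods for rats describe males, a low-salt diet and magnetic retraction. Dahl rats aged 6 weeks, Dahl rats aged 4 weeks, SHR rats aged 6 weeks and SHR rats aged 4 weeks were each represented by 2 arrays, 1 for each biological replicate, on the Affymetrix Rat Genome 230 2.0 array. The ages bracket the start of proteinuria in Dahl rats, so the comparisons ask whether the strains already differed before it and whether the difference was another one at its onset.

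Extracellular matrix is turned over by secreted and membrane-bound metalloproteinases, which are made as inactive proenzymes and are held in check by the tissue inhibitors of metalloproteinases. Plasmin, released from plasminogen by tissue-type and urokinase-type activators, degrades fibronectin and fibrin and can activate some of the metalloproteinase proenzymes. In the glomerulus the mesangium and the capillary wall hold this matrix, and the mesangial matrix contains fibronectin.

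The glomerular RNA carried markers of its tissue. Over the 8 arrays 6 podocyte markers averaged 11.43 to 12.29 on the log2 scale and 7 glomerular endothelial markers averaged 9.46 to 10.46. Over both ages 2 of the 6 podocyte and 3 of the 7 endothelial markers were called higher in Dahl than in SHR rats and none lower (medians 0.20 and 0.38). RNA of tubules was present as well, since 12 proximal tubule markers averaged 9.49 to 11.30 in Dahl rats and 11.42 to 11.82 in SHR rats. Over both ages 2 of the 12 were called lower in Dahl rats (Cyp2e1 and Slc27a2), 1 higher (Slc7a13, by 0.85) and 9 not called (median -0.96). The 8 distal nephron and collecting duct markers averaged 6.20 to 7.59 in Dahl rats and 7.31 to 8.30 in SHR rats, with none higher and 2 lower in Dahl rats over both ages (median -0.86), and the part of these cell types in the strain differences given here was not tested. Dahl 6 weeks replicate 2 stood apart with the lowest proximal tubule mean, 9.49, against 11.02 to 11.82 in the other 7 arrays, so results that rest on it are given with and without it. Arrays of the same group correlated at r = 0.989 to 0.997 across probe sets, which are not independent replicates. Because the samples are bulk RNA, fewer cells of a type and less RNA per cell cannot be told apart.

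Of the 9 genes, 7 were higher in Dahl than in SHR rats over both ages and none was lower, at an adjusted p under 0.05 from limma. Fn1 and Mmp2 differed most, followed by Timp1 and Timp2, while Plat, Mmp14 and Timp3 differed by less than 0.6 on the log2 scale. Mmp9 and Plau did not pass, and after quantile normalization Plat and Mmp14 did not either. Of all probe sets, 10.6% were called higher and 24.2% lower in this comparison (3283 and 7504 of 31042, 2261 and 2479 after quantile normalization, and 3495 and 12396 after median centring). The median difference of the 9 genes was 0.54, beside -0.053 over all probe sets. The 9 genes were chosen with earlier results of these data known. The shares of all probe sets, here and below, are therefore given for scale and are not a test of the set. In 5 of the 9 (Mmp2, Timp1, Timp2, Plat and Fn1) every Dahl array was above every SHR array, which held for 8.15% of all probe sets, and in none was every Dahl array below every SHR array, which held for 42.1%. The 9 main probe sets all had a mean above the median of all probe sets, 4.17. A separate fit was made of the 15521 brighter probe sets, those above this median, with its own adjustment of p. There the balance was the other way, with 19.0% called higher and 11.8% lower, and 6 of the 9 genes were called.

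**Figure D1:**
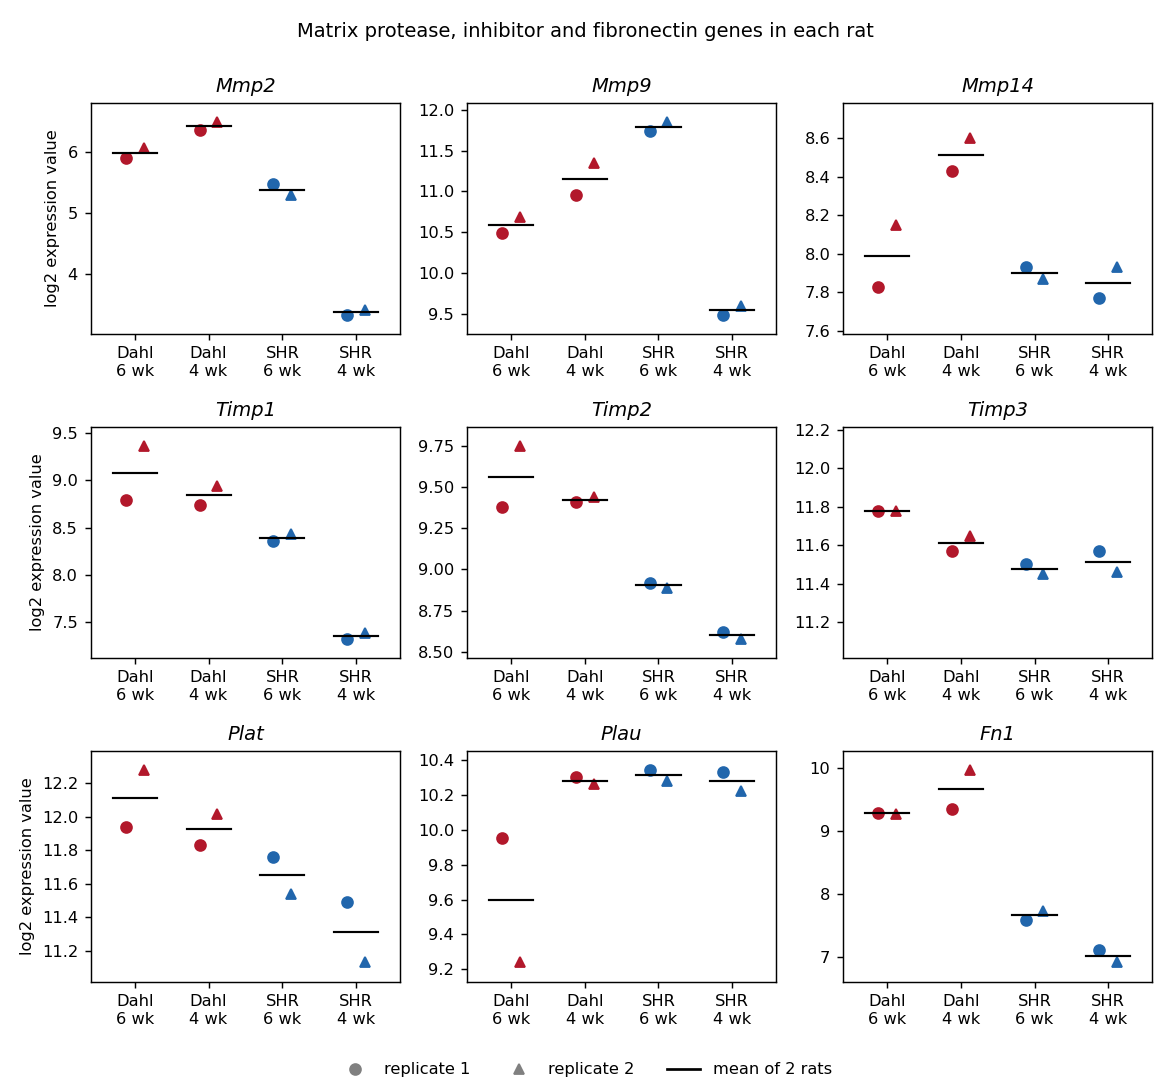
Log2 expression value of the main probe set of each of the 9 genes in each rat, with Dahl rats (red) left of SHR rats (blue) and 6 weeks left of 4 weeks, circles for replicate 1, triangles for replicate 2 and black bars for the mean of 2 rats. The axes differ between panels and do not start at 0. Fn1 spans 9.27 to 9.96 over the 4 Dahl rats and 6.91 to 7.72 over the 4 SHR rats, whereas Mmp9 is highest in SHR rats at 6 weeks and lowest in SHR rats at 4 weeks.

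Mmp2 encodes gelatinase A, which cleaves denatured collagens and type IV collagen of basement membranes. Its values were 5.91 and 6.07 in Dahl rats at 6 weeks and 6.36 and 6.49 at 4 weeks, against 5.47 and 5.29 in SHR rats at 6 weeks and 3.34 and 3.41 at 4 weeks. All 4 Dahl rats were above all 4 SHR rats, and within SHR the younger rats lay far below the older ones. The SHR values at 4 weeks were below the median of all probe set means, 4.17, and above their lower quartile. How the processing of dim probe sets affects the size of differences with this group was not tested. At 6 weeks Mmp2 was 1.52-fold higher in Dahl than in SHR rats (log2 difference 0.61, SE 0.093, limma adjusted p = 0.0467), and at 4 weeks it was 8.30-fold higher (3.05, SE 0.093, limma adjusted p = 0.00183). The call at 4 weeks held without each array in turn (2.99 to 3.12), and so did the one over both ages (1.83, limma adjusted p = 0.00173, with 1.78 to 1.88). At 6 weeks 7 of the 8 arrays cost the call when left out singly, all except Dahl 6 weeks replicate 1, with differences of 0.516 to 0.701. Without Dahl 6 weeks replicate 2 the difference at 6 weeks was 0.531 (limma adjusted p = 0.146). The strain difference itself was smaller at 6 than at 4 weeks, with an interaction of -2.44 (SE 0.131, limma adjusted p = 0.0131). Leaving out SHR 6 weeks replicate 1 cost this call (limma adjusted p = 0.0674), and over the 8 omissions the interaction was -2.35 to -2.54. With age, Mmp2 rose 4.02-fold in SHR rats (2.01, limma adjusted p = 0.00526), and its change in Dahl rats, -0.44, did not pass (limma adjusted p = 0.301). The other Mmp2 probe set, 1369825_at, read 1.99 to 2.02 in Dahl rats and 2.04 to 2.05 in SHR rats, below the lower quartile of probe set means (2.60) on every array.

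Mmp9, the gene of gelatinase B, crossed over between the ages. Its main probe set read 10.49 and 10.69 in Dahl rats at 6 weeks and 10.96 and 11.35 at 4 weeks, against 11.74 and 11.85 in SHR rats at 6 weeks and 9.49 and 9.59 at 4 weeks. The Dahl rats were below the SHR rats at 6 weeks and above them at 4 weeks, with no overlap at either age. Mmp9 was 2.30-fold lower in Dahl rats at 6 weeks (-1.20, SE 0.149, limma adjusted p = 0.0352) and 3.06-fold higher at 4 weeks (1.61, SE 0.149, limma adjusted p = 0.010). Averaged over the ages these cancelled to 0.20 (limma adjusted p = 0.169). The interaction was -2.82 (SE 0.211, limma adjusted p = 0.0289), and within SHR rats Mmp9 rose 4.76-fold with age (2.25, limma adjusted p = 0.00986). In Dahl rats its change with age was -0.57 (limma adjusted p = 0.390).

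A second Mmp9 probe set, 1369166_at, gave 8.55 and 8.38 in Dahl rats at 6 weeks and 8.81 and 9.62 at 4 weeks, against 9.60 and 9.79 in SHR rats at 6 weeks and 6.60 and 6.81 at 4 weeks. The groups kept the same order, except that SHR rats at 6 weeks and Dahl rats at 4 weeks overlap. Dahl minus SHR was -1.24 at 6 weeks, which did not pass (limma adjusted p = 0.0787), and 2.51 at 4 weeks (limma adjusted p = 0.0141), and the interaction was -3.75 (limma adjusted p = 0.0470). For the main Mmp9 probe set, the call at 4 weeks held without each array in turn (1.42 to 1.81). The call at 6 weeks was lost without Dahl 6 weeks replicate 2 (-1.30, limma adjusted p = 0.0986) and without each of the 4 SHR arrays (-1.10 to -1.30 over all omissions). The interaction was lost without each of the 4 SHR arrays (-2.62 to -3.01), and the rise within SHR rats without either SHR 6 weeks array (2.20 to 2.30).

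**Figure D2:**
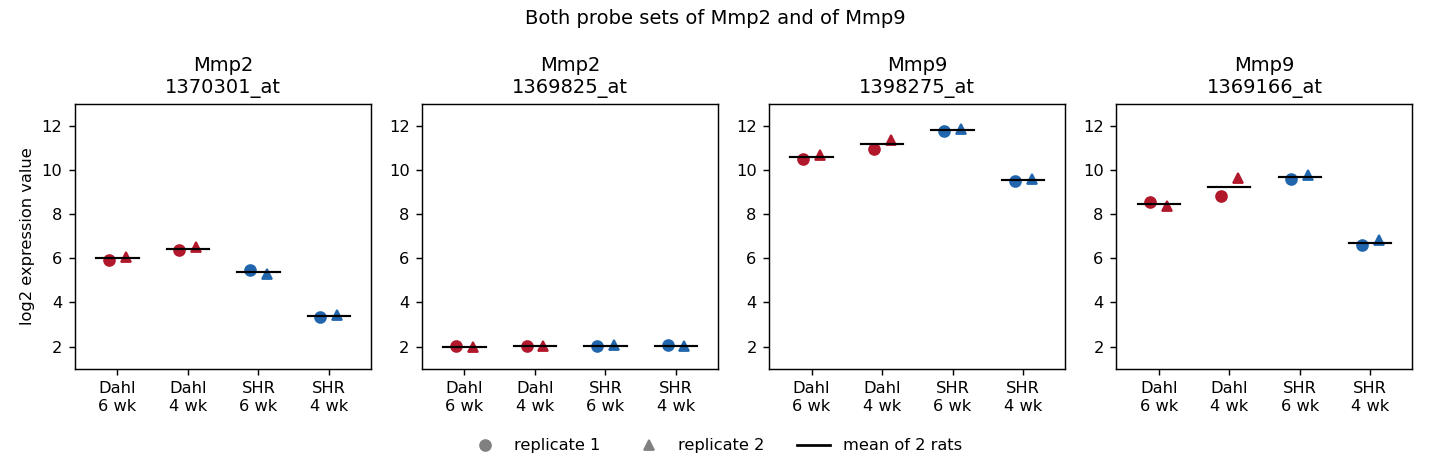
Log2 expression value of both probe sets of Mmp2 and of Mmp9 in each rat, on a common axis, with Dahl rats (red) left of SHR rats (blue) and 6 weeks left of 4 weeks, symbols for the replicates and bars for the mean of 2 rats. Both Mmp9 probe sets have their highest group mean in SHR rats at 6 weeks and their lowest in SHR rats at 4 weeks, and the Mmp2 probe set 1369825_at stays between 1.99 and 2.05 in all 8 rats.

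Macrophages and neutrophils also make Mmp9, so the leukocyte markers of the same arrays are given beside it. The mean of 10 macrophage and leukocyte markers was 5.65 and 6.00 in Dahl rats at 6 weeks and 5.33 and 5.30 at 4 weeks, against 5.71 and 5.65 in SHR rats at 6 weeks and 4.62 and 4.52 at 4 weeks. It was lowest in the SHR rats at 4 weeks, where Mmp2 and Mmp9 were lowest too, and in SHR rats 4 of the 10 markers rose with age, C1qa by 3.32, Ptprc by 2.25, Csf1r by 2.13 and Lyz2 by 1.64. The macrophage marker Mrc1 had a change with age of -0.62 in SHR rats, which did not pass (limma adjusted p = 0.443). Over both ages 5 of the 10 were higher and 3 lower in Dahl than in SHR rats, the lower ones being Mrc1 (-1.76, limma adjusted p = 0.0106), the T cell marker Cd3e (-0.44) and the B cell marker Cd79b (-0.072). Cd79b was below the lower quartile of probe set means on every array. At 4 weeks 4 of the 10 were called higher in Dahl than in SHR rats and 2 lower (median 0.87). At 6 weeks none of the 10 was called higher and 1 lower (median 0.44), and none was called in the interaction. The 4 neutrophil markers measured averaged 3.15 to 3.72 in Dahl rats and 3.07 to 3.72 in SHR rats, with Csf3r and Cxcr2 below the lower quartile on every array and none called. The part of leukocyte RNA in the Mmp2 and Mmp9 values was not tested.

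**Figure D3:**
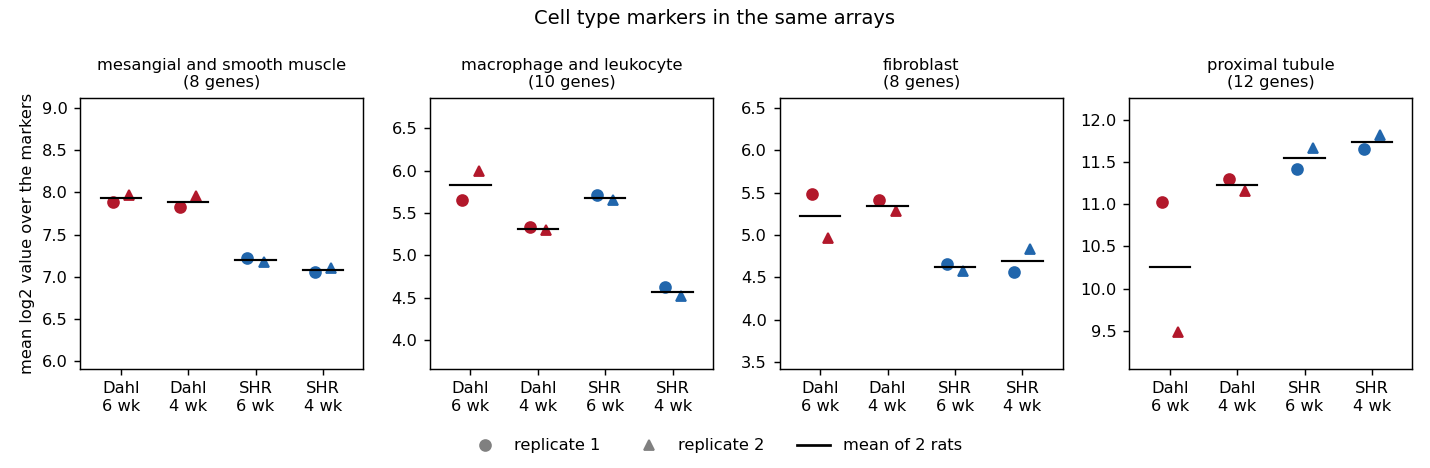
Mean log2 value over the markers of mesangial and smooth muscle cells (8 genes), macrophages and leukocytes (10), fibroblasts (8) and proximal tubule (12) in each rat, with Dahl rats (red) left of SHR rats (blue) and 6 weeks left of 4 weeks and bars for the mean of 2 rats. Macrophage and leukocyte markers are lowest in SHR rats at 4 weeks, at 4.62 and 4.52, and the proximal tubule mean of 9.49 belongs to Dahl 6 weeks replicate 2.

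Mmp14 encodes the membrane-bound metalloproteinase that activates the Mmp2 proenzyme at the cell surface. It read 7.83 and 8.15 in Dahl rats at 6 weeks and 8.43 and 8.60 at 4 weeks, against 7.93 and 7.87 in SHR rats at 6 weeks and 7.77 and 7.93 at 4 weeks. The Dahl rats at 4 weeks lay above all other rats, and the remaining 3 groups overlapped. Mmp14 was 1.30-fold higher in Dahl rats over both ages (0.38, limma adjusted p = 0.0389), with 0.09 at 6 weeks (limma adjusted p = 0.629) and a 1.58-fold difference at 4 weeks (0.66, SE 0.131, limma adjusted p = 0.0412). Of the 8 omissions of single arrays, 7 cost the call over both ages, all except Dahl 6 weeks replicate 1 (0.295 to 0.458), and 6 the one at 4 weeks, all except the 2 Dahl 6 weeks arrays (0.579 to 0.750). A second probe set gave 0.41 over both ages (limma adjusted p = 0.248).

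Among the other matrix metalloproteinases, 14 of 18 had a probe set that named them alone. Over both ages 3 were higher in Dahl rats, Mmp12 by 0.92, Mmp23 by 0.80 and Mmp24 by 0.56, and 8 were lower. Of these 8, 7 had means of only 2.27 to 2.66 and differences of -0.096 to -0.056, which is near the shift of all probe sets, and Mmp17 was the other, at -0.56 with a Dahl mean of 7.41 ± 0.146 and an SHR mean of 7.97 ± 0.498 (SD, n = 4 each). Mmp12, the macrophage elastase, ranged from 4.25 to 6.46 in Dahl rats and from 4.23 to 4.49 in SHR rats, so the strains overlapped at the low end. The median of the 14 was -0.07. Of 13 ADAM and ADAMTS proteases measured, 6 were higher and none lower over both ages (median 0.25), among them Adam15 by 1.23, Adamts5 by 1.02, Adamts15 by 0.87 and Adamts1 by 0.77. For Adamts1 the strains overlapped, at 9.65 to 10.17 in Dahl rats and 8.4 to 9.86 in SHR rats. Adamts1 and Adamts5 encode secreted proteases that cleave aggrecan and versican. Adamts1 was the only one of the 13 called with age in SHR rats, where it rose by 1.41 (limma adjusted p = 0.0207).

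The inhibitors Timp1 and Timp2 were higher in Dahl rats, while Timp3, whose product binds to the matrix and also inhibits several ADAM proteases, differed by only 0.20. Timp1 encodes a secreted inhibitor that binds the Mmp9 proenzyme, and Timp2 encodes the inhibitor that takes part in activating Mmp2 together with Mmp14. Promoter sequences were in RefSeq's table for 4 of the 9 genes, Timp1, Timp2, Timp3 and Plau. Those of the 3 inhibitors, which were all called higher in Dahl rats over both ages, are shown as the 250 bases before the annotated start in build GRCr8, 5′ to 3′ on the gene's strand. Capitals mark the motifs found.
Timp1, chrX:3771123-3771372, minus strand: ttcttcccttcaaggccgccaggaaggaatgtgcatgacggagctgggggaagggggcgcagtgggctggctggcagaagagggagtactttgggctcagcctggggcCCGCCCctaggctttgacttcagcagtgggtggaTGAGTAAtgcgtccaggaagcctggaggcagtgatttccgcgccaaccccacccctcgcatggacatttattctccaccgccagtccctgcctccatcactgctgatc
Timp2, chr10:104089215-104089464, minus strand: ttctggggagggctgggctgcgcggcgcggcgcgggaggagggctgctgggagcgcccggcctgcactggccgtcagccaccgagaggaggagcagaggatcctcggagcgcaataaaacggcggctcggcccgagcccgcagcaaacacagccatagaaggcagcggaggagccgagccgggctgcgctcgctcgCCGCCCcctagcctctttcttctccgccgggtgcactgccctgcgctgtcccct
Timp3, chr7:19459559-19459808, minus strand: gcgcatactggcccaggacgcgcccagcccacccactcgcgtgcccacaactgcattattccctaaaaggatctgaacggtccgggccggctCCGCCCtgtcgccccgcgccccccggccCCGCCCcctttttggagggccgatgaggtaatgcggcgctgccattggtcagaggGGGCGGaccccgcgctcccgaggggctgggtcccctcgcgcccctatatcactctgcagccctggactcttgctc

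The motifs searched on both strands were the AP-1 element (TGANTCA), an AP-1-like element (TGAGTAA), the GC box (GGGCGG, printed as CCGCCC where it lies on the other strand) and the TATA box (TATAAA). The AP-1-like element occurred once, in Timp1, starting 108 bases before the start, and 2.38% of 33469 promoters of this length held it. GC boxes numbered 1 in Timp1, 1 in Timp2, 3 in Timp3 and 3 in Plau, and 30.5% of promoters held at least 1. The AP-1 element, found in 6.34% of promoters, and the TATA box, found in 12.9%, were in none of the 4. A match of letters is a description of the sequence and not of a bound site.

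Timp1 read 8.79 and 9.36 in Dahl rats at 6 weeks and 8.74 and 8.94 at 4 weeks, against 8.36 and 8.43 in SHR rats at 6 weeks and 7.33 and 7.39 at 4 weeks. All Dahl rats were above all SHR rats, and the SHR rats at 4 weeks were lowest. Over both ages Timp1 was 2.11-fold higher in Dahl rats (1.08, SE 0.140, limma adjusted p = 0.0124), with 0.68 at 6 weeks, which did not pass (limma adjusted p = 0.111), and a 2.79-fold difference at 4 weeks (1.48, limma adjusted p = 0.0203). Its change of 1.03 with age in SHR rats did not pass either (limma adjusted p = 0.0843). Without Dahl 6 weeks replicate 2, the highest array for this gene, the difference at 6 weeks was 0.392, and without Dahl 6 weeks replicate 1 it was 0.968, which passed (limma adjusted p = 0.0211). The change in SHR rats passed when either Dahl 6 weeks array was left out (1.03, limma adjusted p = 0.0243).

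Timp2 gave 9.38 and 9.75 in Dahl rats at 6 weeks and 9.41 and 9.44 at 4 weeks, against 8.92 and 8.89 in SHR rats at 6 weeks and 8.62 and 8.58 at 4 weeks. The strains did not overlap at either age. It was 1.67-fold higher in Dahl rats over both ages (0.74, SE 0.0859, limma adjusted p = 0.0104), with 0.66 at 6 weeks, which did not pass (limma adjusted p = 0.0598), and 0.82 at 4 weeks (limma adjusted p = 0.0245). Without Dahl 6 weeks replicate 2 the difference at 6 weeks was 0.474 and passed (limma adjusted p = 0.0353), as it did without Dahl 6 weeks replicate 1 (0.845, limma adjusted p = 0.00603). A second Timp2 probe set read 5.46 to 6.28 in Dahl rats and 4.14 to 4.78 in SHR rats, a difference of 1.42 (limma adjusted p = 0.0233). The calls of Timp1 and Timp2 over both ages held without each array in turn (0.935 to 1.22 and 0.649 to 0.834), whereas at 4 weeks each was lost without any of 6 arrays, all except the 2 Dahl 6 weeks arrays (1.38 to 1.58 and 0.803 to 0.844).

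Timp3 was among the brightest probe sets of the array, in percentile 99.1 of probe set means. It read 11.78 and 11.78 in Dahl rats at 6 weeks and 11.57 and 11.65 at 4 weeks, against 11.50 and 11.45 in SHR rats at 6 weeks and 11.57 and 11.46 at 4 weeks. The strains were apart at 6 weeks and touched at 4 weeks, and neither difference passed (0.30 and 0.09, limma adjusted p = 0.0559 and 0.232). Over both ages Timp3 was 1.15-fold higher in Dahl rats (0.20, limma adjusted p = 0.0248), a call lost without replicate 2 of Dahl 6 weeks, Dahl 4 weeks or SHR 4 weeks or without either SHR 6 weeks array (0.170 to 0.226 over all omissions). Its other 3 probe sets gave 0.05 (limma adjusted p = 0.675), 0.40 (limma adjusted p = 0.0425) and 1.22 (limma adjusted p = 0.0244), so the probe sets disagree in size. The dimmest of them read 5.87 to 6.90 in Dahl rats and 4.08 to 5.63 in SHR rats.

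Other inhibitors and regulators of metalloproteinases were mostly dim or called in opposite directions. Of 10 measured, 2 were higher in Dahl rats over both ages and 4 lower, with a median of -0.13. Reck, a membrane-anchored inhibitor of Mmp2, Mmp9 and Mmp14, ranged from 10.06 to 10.70 in Dahl rats and from 8.35 to 9.50 in SHR rats. That is a 2.71-fold difference (1.44, SE 0.151, limma adjusted p = 0.00897) with no overlap. Cav1, the caveolin gene, was higher by 0.91. The 4 lower ones, Spock3 (-0.32), Tfpi2 (-0.16), Spock1 (-0.096) and A2m (-0.066), were all dim, with means of 2.48 to 3.33, and A2m turned to 0.008 under quantile normalization.

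Plat encodes tissue-type plasminogen activator and Plau the urokinase type. Plat read 11.94 and 12.28 in Dahl rats at 6 weeks and 11.83 and 12.02 at 4 weeks, against 11.76 and 11.54 in SHR rats at 6 weeks and 11.49 and 11.13 at 4 weeks. Every Dahl rat was above every SHR rat, but the closest pair was only 0.0706 apart. Plat was 1.45-fold higher over both ages (0.54, SE 0.130, limma adjusted p = 0.0383), and neither age passed alone (0.46 at 6 weeks and 0.61 at 4 weeks, limma adjusted p = 0.152 and 0.0940). This call was lost without any of 6 arrays, all except Dahl 6 weeks replicate 1 and SHR 4 weeks replicate 1 (0.447 to 0.626 over all omissions). Without Dahl 6 weeks replicate 2 the difference was 0.450 (limma adjusted p = 0.0857).

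Plau values were lowest in the Dahl rats at 6 weeks. It read 9.95 and 9.24 in Dahl rats at 6 weeks and 10.30 and 10.26 at 4 weeks, against 10.34 and 10.28 in SHR rats at 6 weeks and 10.33 and 10.22 at 4 weeks. The other 3 groups overlapped, and the lowest value of all came from Dahl 6 weeks replicate 2, the array with the lowest proximal tubule mean, and the part of tubular RNA in the Plau values was not tested. The difference at 6 weeks was -0.71 (SE 0.231, limma adjusted p = 0.122). It was -0.36 without Dahl 6 weeks replicate 2 (limma adjusted p = 0.123) and -1.07 without Dahl 6 weeks replicate 1 (limma adjusted p = 0.00983). Over both ages Plau stood at -0.36 (limma adjusted p = 0.134), and at -0.53 without Dahl 6 weeks replicate 1, which passed (limma adjusted p = 0.00847). A second Plau probe set read 6.29 and 5.76 in Dahl rats at 6 weeks and 6.93 and 7.30 at 4 weeks, against 5.83 and 5.77 in SHR rats at 6 weeks and 6.72 and 6.92 at 4 weeks. There the strains overlapped at 6 weeks, the Dahl rats were just above the SHR rats at 4 weeks, and the ages were apart, with changes with age of -1.09 in Dahl rats and -1.02 in SHR rats that did not pass (limma adjusted p = 0.271 and 0.105).

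Of 10 other genes of the plasminogen system, 5 were higher and 1 lower in Dahl rats over both ages, with a median of 0.42. Serpine2, protease nexin 1, an inhibitor of thrombin and of both plasminogen activators, ranged from 7.43 to 8.10 in Dahl rats and from 4.58 to 6.28 in SHR rats, which is a difference of 2.31 (limma adjusted p = 0.0104). Plaur, the urokinase receptor, ranged from 6.00 to 7.49 in Dahl rats and from 4.14 to 5.46 in SHR rats (1.89, limma adjusted p = 0.0260). The call of Plaur was lost without any of 5 arrays, which were Dahl 6 weeks replicate 2 (1.67, limma adjusted p = 0.0651), both Dahl 4 weeks arrays and both SHR 6 weeks arrays (1.56 to 2.22 over all omissions). Anxa2 and S100a10, whose proteins together form a cell surface receptor for plasminogen and its tissue-type activator, were higher by 0.66 and 0.78, and the endocytic receptor gene Lrp1 by 0.89. Serpinb2, the lower one, had a mean of 2.42 and a difference of -0.084.

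Fn1, the fibronectin gene, had the largest strain difference of the 9 over both ages. It read 9.28 and 9.27 in Dahl rats at 6 weeks and 9.35 and 9.96 at 4 weeks, against 7.59 and 7.72 in SHR rats at 6 weeks and 7.10 and 6.91 at 4 weeks. The lowest Dahl rat stood 1.56 above the highest SHR rat. Fn1 was 4.40-fold higher in Dahl rats over both ages (2.14, SE 0.147, limma adjusted p = 0.00483), 3.08-fold higher at 6 weeks (1.62, limma adjusted p = 0.0370) and 6.28-fold higher at 4 weeks (2.65, SE 0.208, limma adjusted p = 0.00775). The interaction, -1.03, did not pass (limma adjusted p = 0.297), and neither did the changes with age of -0.38 in Dahl rats (limma adjusted p = 0.708) and 0.65 in SHR rats (limma adjusted p = 0.242). Leaving out each array in turn kept the calls over both ages (1.99 to 2.29) and at 4 weeks (2.35 to 2.96). At 6 weeks the call was lost without Dahl 6 weeks replicate 2 (1.62, limma adjusted p = 0.125) and without each of the 4 SHR arrays (1.56 to 1.69 over all omissions).

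Markers of mesangial cells and fibroblasts are given beside Fn1. The mean of 8 mesangial and smooth muscle markers was 7.83 to 7.97 in Dahl rats and 7.06 to 7.22 in SHR rats, and 6 of the 8 were called higher over both ages and none lower, with none of the 8 below the lower quartile on every array. The 8 fibroblast markers averaged 4.96 to 5.48 in Dahl rats and 4.56 to 4.83 in SHR rats, with 2 higher (Pi16 and Col1a1), 1 lower (Lum) and 5 not called over both ages (median 0.23) and Lum and Mfap5 below the lower quartile on every array. The part of these cells in the values of Fn1, Mmp2, Timp1 and Timp2 was not tested.

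Of 10 fibronectin receptor genes, 4 integrin subunits were higher over both ages and 1 lower, with a median of 0.51. Itga5, whose product pairs with that of Itgb1 in the classical fibronectin receptor, ranged from 5.86 to 6.28 in Dahl rats and from 5.31 to 5.86 in SHR rats (0.64). Itgb1 was higher by 0.48, Itga3 by 0.84 and Itga8, the mesangial subunit, by 0.74. Itgb6 was lower (-0.70), at 6.93 to 8.27 in Dahl rats and 8.24 to 8.53 in SHR rats, which overlap. Of 26 fibronectin partners and interstitial matrix genes, 12 were higher and 2 lower over both ages (median 0.36). The lists share genes with the markers above and are not separate observations there. Itga8 is also a mesangial marker, and Col1a1, Lum, Dcn, Col3a1 and Fbln2 are also fibroblast markers. Col1a1, the type I collagen chain, ranged from 9.01 to 10.12 in Dahl rats and from 6.37 to 7.46 in SHR rats (2.64, SE 0.166, limma adjusted p = 0.00378). The crosslinking enzyme genes Loxl2, Lox and Loxl1 were higher by 1.17, 1.05 and 0.87. For Lox the strains overlapped, at 6.33 to 7.18 in Dahl rats and 4.84 to 6.55 in SHR rats. Loxl2 was below the median of probe set means on 3 arrays. The 2 lower genes, Postn (-0.13) and Lum (-0.063), had means of 2.81 and 2.37, and Lum turned to 0.003 under quantile normalization.

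**Figure D4:**
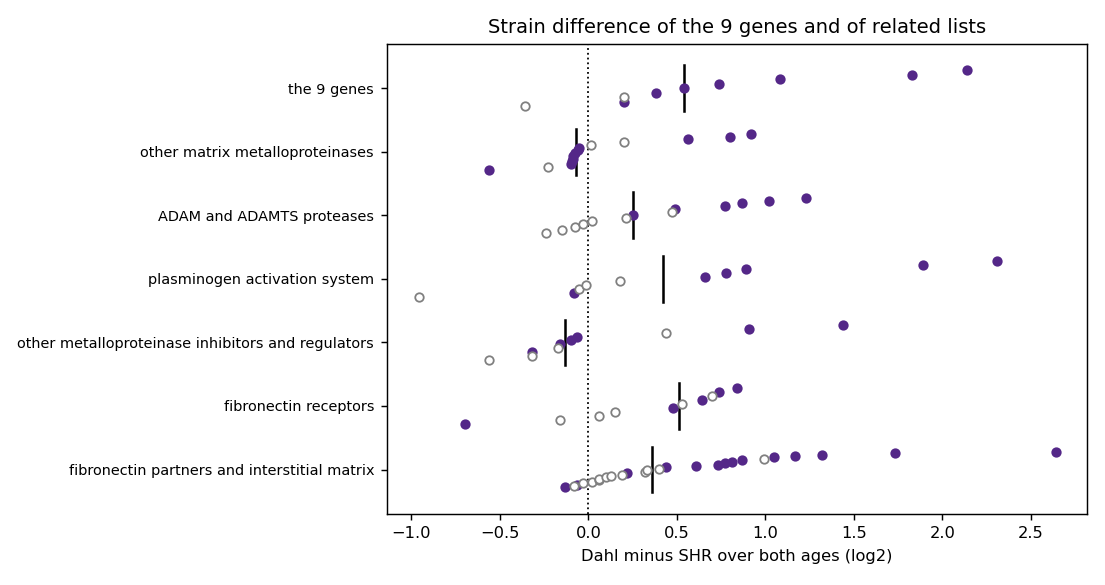
Dahl minus SHR over both ages (log2) for the main probe set of each gene in the 9 genes and in the 6 related lists, 1 point per gene, filled where the limma adjusted p is under 0.05 and open where it is not, with a black bar at the median of each list. The medians run from -0.13 for the other inhibitors to 0.54 for the 9 genes, and Col1a1 lies farthest to the right at 2.64.

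By age, 2 of the 9 genes were higher in Dahl rats at 6 weeks (Mmp2 and Fn1) and 1 lower (Mmp9), with a median of 0.46, while 1.65% of all probe sets were called higher and 1.63% lower. At 4 weeks 6 were higher (Mmp2, Mmp9, Mmp14, Timp1, Timp2 and Fn1) and none was lower, with a median of 0.82, while 5.63% of all probe sets were called higher and 6.41% lower. In the separate fit of the 15521 brighter probe sets, 6.39% were called higher and 2.93% lower at 6 weeks. At 4 weeks that fit called 13.1% higher and 6.80% lower. Of the 9 genes it called 4 at 6 weeks and 6 at 4 weeks. In the fit of all probe sets, 7 of the 9 passed a nominal p under 0.05 at each age. Of all probe sets, 34.1% did so at 6 weeks and 37.0% at 4 weeks. Of the 26 fibronectin partners, 4 were higher at 6 weeks and 12 at 4 weeks, with none lower at either age. The comparisons of the ages and of the strains share arrays, so their values are set side by side and no overlap between them is given.

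**Figure D5:**
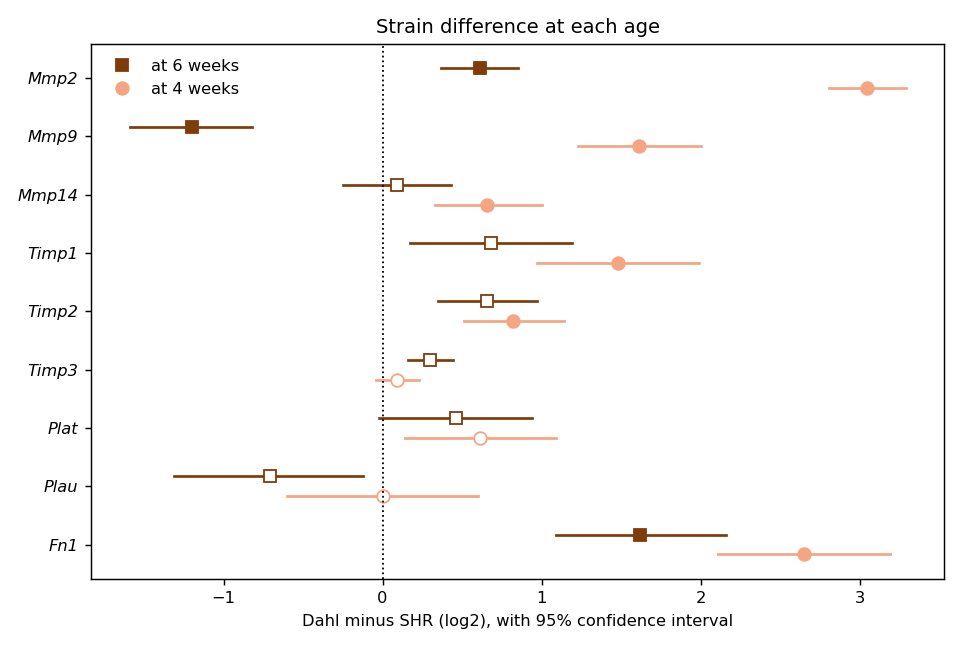
Dahl minus SHR (log2) of the main probe set of each gene at 6 weeks (squares) and at 4 weeks (circles), with 95% confidence intervals from limma, filled where the adjusted p is under 0.05. Mmp9 lies at -1.20 at 6 weeks and at 1.61 at 4 weeks, Mmp2 at 0.61 and 3.05, and the intervals of Mmp14 and Plat at 6 weeks and of Plau and Timp3 at 4 weeks include 0.

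With age, 2 of the 9 genes rose in SHR rats (Mmp2 and Mmp9) and none fell, with a median of 0.34, while 1.50% of all probe sets rose and 0.915% fell. In Dahl rats none of the 9 passed, with a median of -0.38, while 0.0805% of all probe sets passed in either direction. At a nominal p under 0.05, 5 of the 9 passed in Dahl rats and 4 in SHR rats, beside 8.76% and 15.2% of all probe sets. Without Dahl 6 weeks replicate 1, Plau (-1.04, limma adjusted p = 0.0158) and Timp2 (0.325, limma adjusted p = 0.0357) passed in Dahl rats, and so did the interaction of Plau (-1.07, limma adjusted p = 0.0312). The interaction was called for 2 of the 9, both negative, while 0.283% of all probe sets had a negative and 0.235% a positive one. Among the 26 fibronectin partners, Bgn (1.07), Fbln5 (1.68), Col6a3 (1.52) and Loxl1 (0.84) rose with age in SHR rats and Lox fell by 1.67, and 1 of the 26, Loxl2, was called in the interaction (-1.30, limma adjusted p = 0.0397).

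Groups were ordered alike for several genes. Mmp2, Mmp14 and Fn1 ran from Dahl at 4 weeks through Dahl at 6 weeks and SHR at 6 weeks down to SHR at 4 weeks, with all neighbours apart for Mmp2 and Fn1. For Mmp14, Dahl at 6 weeks, SHR at 6 weeks and SHR at 4 weeks overlapped. Timp1, Timp2 and Plat ran from Dahl at 6 weeks through Dahl at 4 weeks and SHR at 6 weeks down to SHR at 4 weeks, and in all 3 the Dahl groups overlapped while the others were apart. Mmp9 ran from SHR at 6 weeks through Dahl at 4 weeks and Dahl at 6 weeks down to SHR at 4 weeks, with all neighbours apart. Timp3 ran from Dahl at 6 weeks through Dahl at 4 weeks and SHR at 4 weeks down to SHR at 6 weeks, with only the Dahl groups apart. Plau ran from SHR at 6 weeks through Dahl at 4 weeks and SHR at 4 weeks down to Dahl at 6 weeks, with only the last apart. The share of all probe sets with such orders was not counted, so the orders are a description only.

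The genes with the most similar profile were sought among all named genes, by the smallest root mean square difference between deviations from the gene's own mean over the 8 arrays. For Mmp2 these were Spns2 (0.276), Aplnr (0.320) and Marcksl1 (0.321), and for Fn1 S100a6 (0.269), Vegfd (0.285) and Ptgfrn (0.294). Timp1 was nearest to Plxnd1 (0.0774), Crip1 and Tmed3, Timp2 to Amotl1 (0.0550), Cltb and Cd151, and Plat to Anxa1 (0.0478), Kif5b and Tmem184b. Mmp14 was nearest to Zfp827, Rap2a and Gmnn, and Timp3, whose own spread was only 0.122, to Syf2, Ppp1r12a and Snrnp200. The neighbours of Mmp9, looked up after its values were seen, were Tacc3 (0.251), Atad2 (0.285) and Mcm5 (0.296).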

How the data were processed

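RNA of isolated glomeruli was measured on 8 Affymetrix arrays, and groups and replicate numbers were taken from the sample titles. No step was added to the deposited log2 values, which the authors had background-corrected, normalized and summarized per probe set. The submitters' processing notes name RMA and GCRMA. The choice between them, versions and array batches: not given in the sources used here. RMA and GCRMA treat dim probe sets differently, so differences that involve values near the bottom of the scale may depend on that choice. Of 31099 probe sets, 57 controls were left out. The platform annotation named 1 gene for 20826, several for 436 (given no name) and none for 9780. Each gene is represented by its brightest probe set, and levels of different probe sets are not compared.

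With limma 3.58.1 (R 4.3.3), 1 mean per group was fitted over all 8 arrays (4 residual and 0.921 prior degrees of freedom). Adjusted p values are Benjamini and Hochberg's over 31042 probe sets, with a threshold of 0.05, and tests are two-sided. The interaction is Dahl minus SHR at 6 weeks less the same difference at 4 weeks. The code was tested on simulated data. The number of arrays limits the precision. The p values weigh a difference against the spread between rats of the same group, pooled over the groups and shared by limma across probe sets. They cover only the rats arrayed.

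The 9 genes and the gene and marker lists were chosen with earlier results of these data known. Besides the 9, up to 4 genes with the smallest p over both ages are named from each list, any gene of a direction holding 5 or fewer, the 3 nearest profiles of each of the 9 called over both ages, and markers that stand beside a result. Genes of the lists called with age or in the interaction were named after their values were seen. Alternatives were quantile normalization, a robust variance with an intensity trend, a filter on dim probe sets, median centring, the replicate number as a block, leaving out each array, fitting only the arrays compared, the second brightest probe set, other thresholds and the methods' t-test. Promoters are RefSeq's.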

Additional observations from a re-analysis of the deposited data

Results flagged for a closer look

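For 2 of the 9 genes, on 3 probe sets, the strain difference itself differed between the ages by limma's interaction test. The Mmp2 probe set 1370301_at had Dahl minus SHR of 0.61 at 6 weeks and 3.05 at 4 weeks, an interaction of -2.44 (limma adjusted p = 0.0131). The Mmp9 probe set 1398275_at had -1.20 at 6 weeks and 1.61 at 4 weeks, an interaction of -2.82 (limma adjusted p = 0.0289), and 1369166_at had -1.24 and 2.51, an interaction of -3.75 (limma adjusted p = 0.0470). For both genes the larger change with age was in SHR rats, 2.01 for Mmp2 and 2.25 and 2.99 for the Mmp9 probe sets, against -0.44, -0.57 and -0.75 in Dahl rats. Groups of 2 rats are too small for a test of single outlying rats.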

How the results depend on the processing

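Over both ages 7 of the 9 genes were called, and the number was 4 with the second brightest probe set, 2 at a threshold of 0.01 and 4 to 8 with single arrays left out. At 4 weeks it was 6, with 3 in the fit of the 4-week arrays alone, 3 with the second brightest probe set, 2 at 0.01, 0 by the methods' t-test after Benjamini-Hochberg and 3 to 6 with single arrays left out. At 6 weeks it was 3, with 5 under the intensity trend and robust variance, 5 at a threshold of 0.1, 1 with the second brightest probe set, 0 at 0.01, 0 in the fit of the 6-week arrays alone, 0 by the t-test after Benjamini-Hochberg and 0 to 6 with single arrays left out. The change with age in Dahl rats was called for 0 (0 to 2 with single arrays left out). In SHR rats it was called for 2, with 5 by the t-test at a nominal 0.05, 0 by it after Benjamini-Hochberg, 1 with the second brightest probe set and 1 to 4 with single arrays left out. The interaction was called for 2, with 1 by the second brightest probe set, 0 at 0.01 and 0 to 3 with single arrays left out. The causes were not tested, except that fits of fewer arrays have fewer degrees of freedom by construction. In the counts with the second brightest probe set, Timp1, Plat and Fn1, which have no second one, kept their main probe set. Of the 6 genes with several probe sets, the second was called only for Timp2 over both ages and only for Mmp9 at 4 weeks. At 6 weeks it was called for none, and with age in SHR rats and in the interaction only for Mmp9.

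No direction of a called difference of the 9 genes turned, apart from Mmp2 at its second, dim probe set (-0.0372 over both ages, -0.047 at 6 and -0.0275 at 4 weeks). Differences that were not called turned as follows. With the second probe set Plau was 0.26 over both ages, 0.224 at 6 weeks and -1.02 with age in SHR rats, Timp3 -0.264 at 4 weeks, and Timp2 -0.0548 with age in Dahl rats. Median centring gave Plau -0.045 at 4 weeks, and quantile normalization gave Timp3 0.003 with age in SHR rats. Of the list genes called lower over both ages, A2m turned to 0.008 and Lum to 0.003 under quantile normalization. With single arrays left out, Plau ranged from -0.054 to 0.057 at 4 weeks and from -0.024 to 0.087 with age in SHR rats, and Mmp14 from -0.076 to 0.252 at 6 weeks and from -0.023 to 0.133 with age in SHR rats. Timp1 then ranged from -0.052 to 0.524 and Timp2 from -0.046 to 0.325 with age in Dahl rats, Timp3 from -0.097 to 0.016 with age in SHR rats, and the interactions of Timp2 from -0.35 to 0.022 and of Plat from -0.331 to 0.028.

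Whether the replicate numbers pair the rats across groups is not given in the labels. Deviations of same-numbered arrays correlated at -0.225 to 0.236, which does not settle it with groups of this size. With the number as a block 6 of the 9 were called over both ages (Plat was lost, limma adjusted p = 0.0699), 1 at 6 weeks, 6 at 4 weeks, 2 with age in SHR rats and 1 in the interaction (Mmp9 at -2.82, limma adjusted p = 0.0368, while Mmp2 at -2.44 was lost, limma adjusted p = 0.0504). Over the whole array, 10787 probe sets were called over both ages, 5598 with the block, 4740 after quantile normalization, 15891 after median centring, 15164 under the intensity trend, 4776 of the 15521 brighter ones and 2286 to 11471 with single arrays left out. The median difference of all probe sets, -0.0534, was -0.00536 after quantile normalization and -0.0927 after median centring.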
